A study of Arabidopsis thaliana with 29 samples.

Results

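The 150 genes described here carried mainly the mother's allele in the zygote and lost more of that excess by the octant stage than any other gene of their kind. They were chosen from the authors' deposited maternal fractions, which give for each gene the share of reads over a sequence variant that came from the mother's allele. A gene was eligible with at least 50 such variant reads in zygote and octant embryos of both crosses and a maternal share of at least 80% in both crosses at zygote. That left 1551 of the 4202 genes with enough reads, out of 12448 genes with exonic parental values. The 150 with the largest fall in the mean of both crosses from zygote to octant were kept, and the other 1401 serve for comparison as the other zygote-maternal genes.

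The data are RNA-seq read counts of Arabidopsis thaliana embryos at 7 stages, from the zygote through octant, globular, heart, torpedo and bent embryos to the mature embryo, and of unfertilized ovules. The embryos are first-generation hybrids between the accessions Col-0 and Tsu-1, crossed in both directions and written here with the mother first, so both crosses share a nuclear genotype. Zygotes had 1 library for Col-0 × Tsu-1, which joined 3 technical libraries, and 2 for Tsu-1 × Col-0. The octant, globular and all later groups had 2 libraries per cross, and the ovules, of Col-0 only, had 2. Depth ran from 0.69 to 60.4 M reads per library, with 60.4, 39.5 and 9.997 M at zygote and 8.74 to 11.5 M at octant. Of the libraries compared here the shallow ones were the second replicates of the globular Tsu-1 × Col-0 group (1.49 M) and of the ovules (2.85 M). Embryos were dissected by hand and their RNA was amplified, and nothing in the labels gives the number of embryos behind a library. Zygote values of Col-0 × Tsu-1 therefore have no biological replicate, and the maternal shares were given per group rather than per library, so they carry no spread between replicates.

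In flowering plants the egg cell passes its stored transcripts to the zygote, and the young embryo replaces them with transcripts made from both parental genomes. A maternal excess can come from transcripts inherited through the egg, from transcription of the maternal allele after fertilization or from RNA of the surrounding maternal seed tissue. The allele share alone does not tell these apart. The total number of reads adds a second measure, which the choice of these genes did not use. In whole embryos, a smaller number of cells of a type and less RNA per cell cannot be told apart.

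The values that chose the genes are given first, as a description. The median maternal share of the 150 genes was 90.8% in Col-0 × Tsu-1 and 95.8% in Tsu-1 × Col-0 at zygote, and 77.2% and 60.9% at octant. The fall in the mean of both crosses had a median of 23.6 percentage points and ranged from 20.4 to 42.4, against a median of 6.65 among the other zygote-maternal genes. It was unequal between the crosses, with a median of 13.1 points in Col-0 × Tsu-1 and 34.7 in Tsu-1 × Col-0. The other zygote-maternal genes had medians of 0.99 and 10.9 points in the same order. The fall was larger with the Tsu-1 mother in 134 of the 150 genes and in 1114 of the 1401 others. Among all 4202 genes with enough reads it was larger in 3191. The share fell in both crosses in 145 of the 150 genes, and by at least 20 points in both in 29. The thresholded choice ended at near-equal falls. The last genes taken were NAGS1, an enzyme of arginine synthesis, and RTV1, a relative of VERNALIZATION1, with mean falls of 20.38 and 20.36 points. Just outside stood UTR6, a nucleotide sugar transporter, and ABC4, a prenyltransferase, with 20.34 and 20.33 points.

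The working name of this group, balanced by octant, does not hold for most of its genes. The mean octant share of both crosses had a median of 67.9% and ranged from 52.5% to 78.7%. It lay between 40% and 60% in 15 genes, and in both crosses separately in 1 gene, SUVH3, which encodes a histone methyltransferase-like protein of the SU(VAR)3-9 family. Single crosses differed, with 59 genes between 40% and 60% in Tsu-1 × Col-0 and 10 in Col-0 × Tsu-1. By the authors' adjusted p under 0.05 with at least 10 variant reads in each cross, 6 of the 150 genes were still maternal in both crosses at octant, a stage the choice used, against 26.9% of all 8916 genes with enough reads and 67.4% of the other zygote-maternal genes. With a Col-0 mother alone, 108 were still called maternal (72%), beside 57.5% of all genes and 93.8% of the other zygote-maternal genes. With a Tsu-1 mother alone 13 were (8.67%), beside 34% and 70.1%.

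**Figure D1:**
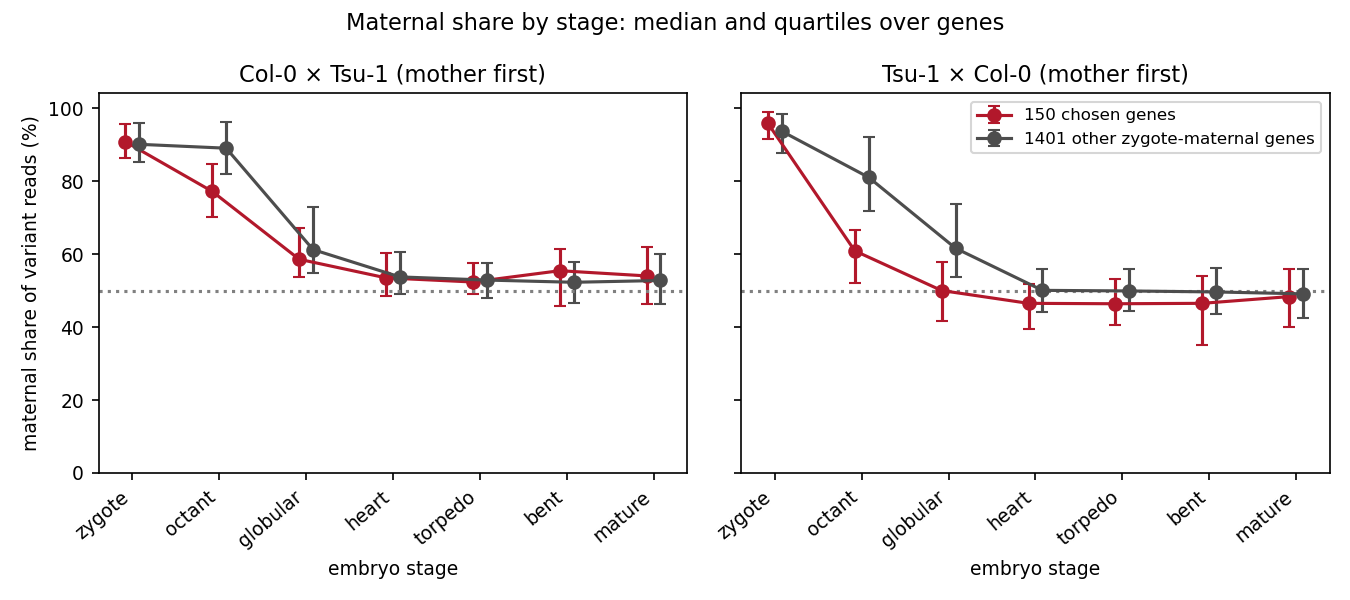
Maternal share of variant reads in percent at each embryo stage, for each cross, as the median with quartiles over the 150 genes and over the 1401 other zygote-maternal genes, from the authors' pooled values; the dotted line marks 50%. The 150 genes dropped to 77.2% and 60.9% at octant and reached 58.6% and 50.0% at globular, while the others were at 89.0% and 81.0% at octant.

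At globular, a stage the choice did not use, the shares were closer to equal, more so with a Tsu-1 mother. The median share there was 58.6% in Col-0 × Tsu-1 and 50.0% in Tsu-1 × Col-0. Single crosses lay between 40% and 60% in 80 genes (53.3%) of Col-0 × Tsu-1, where 66 were over 60%, and in 95 (63.3%) of Tsu-1 × Col-0. Among the other zygote-maternal genes these percentages were 43.4% and 40.9%. Among all genes with at least 50 variant reads at zygote and octant they were 57.7% and 54.1%. The share of the 150 genes in Col-0 × Tsu-1 was thus below that of all such genes. The mean of both crosses lay between 40% and 60% in 132 of the 150 genes (88.0%). With at least 10 reads in both crosses, it did so in 48.1% of the 1376 other zygote-maternal genes. Among all genes with at least 50 variant reads at zygote and octant it did so in 73.3% of 4171. None of the 150 genes was called maternal in both crosses at globular by the authors' adjusted p, where 1.9% of all 8331 genes with enough reads were. Among the other zygote-maternal genes the count was 115, or 8.36%. In Col-0 × Tsu-1 alone, 17 of the 150 genes (11.3%) were called maternal at globular, beside 7.89% of all genes and 19.5% of the other zygote-maternal genes. None was called maternal or paternal in both crosses from heart to mature. At those stages 0.219% (heart), 0.169% (torpedo), 0.0512% (bent) and 0% (mature) of all genes with enough reads were called maternal. The deposited p-values are adjusted ones, so these zeros have no count by unadjusted p.

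Averaged over both crosses, the Col-0 allele held more than 50% of the octant reads in 123 of the 150 genes. So it did in 1102 of the 1401 other zygote-maternal genes and in 2999 of all 4202 genes with enough reads. In Tsu-1 × Col-0 alone, Col-0 is the father. There the Tsu-1 share was still over 60% in 79 of the 150 genes and under 40% in 12. The Col-0 share was averaged over both crosses, so that a parental effect equal in both cancels. A maternal excess that differs between the crosses does not cancel and moves this value too, which was not tested. In the 150 genes the median Col-0 share was 48.0% at zygote and 57.9% at octant. The choice of at least 80% maternal in both crosses keeps this value between 40% and 60% at zygote. The octant shares were also used by the choice, so the change from zygote to octant is a description. The octant median of the other zygote-maternal genes was 52.7%. Later medians of the 150 genes were above 50% too, namely 54.7% in globular, 53.7% in heart and 52.9% in mature embryos. Those of the other zygote-maternal genes were 50.6%, 51.8% and 51.5%. A gene with a Col-0 excess shows a maternal share that falls with a Tsu-1 mother and stays high with a Col-0 mother. At octant 19 of the 150 genes (12.7%) had a Col-0 share of at least 70%, and 6 (4%) had at least 80%. Among the other zygote-maternal genes these percentages were 0.785% and 0%, and all genes were not counted. A large fall in 1 cross raises the Col-0 share, so the choice partly fixes these counts.

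Those 6 genes include 3 of the 10 largest falls. They are AT1G49920, annotated as a MuDR family transposase, SEC3A, a subunit of the exocyst that tethers secretory vesicles, PFK2, a glycolytic phosphofructokinase, the defensin-like gene AT1G69818, the arabinogalactan protein gene AGP18 and AT4G02920, an uncharacterized gene. SEC3A had a maternal share of 87.9% at zygote and 88.1% at octant in Col-0 × Tsu-1, and of 92.4% and 17.0% in Tsu-1 × Col-0. Its Col-0 share of 85.6% at octant was followed by 82.6%, 75.9% and 80.7% in globular, heart and mature embryos. PFK2 stayed at 99.2% and 99.9% maternal with a Col-0 mother and fell from 93.6% to 23.8% with a Tsu-1 mother, and its Col-0 share was 92.6% at globular. AT1G49920 had the largest fall of all, from 98.4% to 88.8% and from 98.0% to 22.7%, with 59 variant reads in the octant Tsu-1 × Col-0 group. For AT1G49920, SEC3A and AT1G69818 the authors' adjusted p called the Col-0 allele higher in both crosses at octant, a stage the choice used, as for 1.22% of all genes with enough reads. Reads aligned to a Col-0 genome can favour the Col-0 allele, and its part in these values was not tested.

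**Figure D2:**
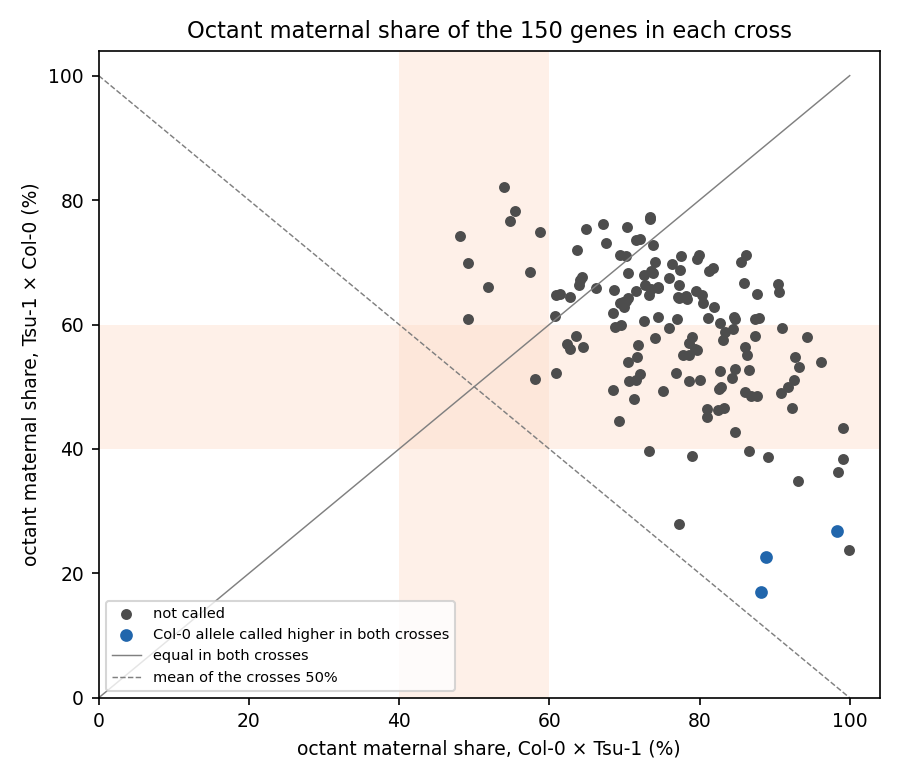
Maternal share at octant in percent, Col-0 × Tsu-1 on the horizontal axis and Tsu-1 × Col-0 on the vertical axis, 1 point per gene; shaded bands mark 40% to 60% in each cross and blue points the 3 genes with the Col-0 allele called higher in both. Most points lie below the line of equal shares, and 1 gene, SUVH3, lies in both bands.

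The remaining large falls were seen with either mother, as a description. SUVH3 went from 88.2% to 58.1% maternal in Col-0 × Tsu-1 and from 99.8% to 51.3% in Tsu-1 × Col-0. ARF8, an auxin response factor that binds promoters of auxin-regulated genes, went from 83.4% to 60.9% and from 99.6% to 52.2%. CSP3, a cold shock domain protein known as an RNA chaperone, went from 89.8% to 62.4% and from 98.7% to 56.8%. FIP2, which encodes a protein that interacts with the flowering regulator FRIGIDA, went from 81.5% to 49.2% and from 96.4% to 60.8%. AT5G07670, an RNI-like protein gene, went from 98.1% to 69.6% and from 97.3% to 59.95%. GlcNAc1pUT1, which makes UDP-N-acetylglucosamine, and pde194, annotated as a formyltransferase, also fell with either mother but further with Tsu-1, with 28.0% and 39.6% maternal in the octant Tsu-1 × Col-0 group.

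The question put to the total reads was whether the level of a gene changed while its maternal share fell. Levels are CPM, the reads of a gene relative to the scaled total of its library, and fold changes are log2 values of octant over zygote from a fit across all genes. For most of the 150 genes no change passed the test. From zygote to octant 20 rose and 30 fell at an edgeR adjusted p under 0.05, that is 13.3% and 20%, beside 16.8% higher and 18.1% lower among all 19736 genes tested. Among the other zygote-maternal genes 9.49% rose and 24.7% fell. The shares of the 150 genes are thus near those of all genes. The median log2 fold change was -0.11, against -0.45 among the other zygote-maternal genes and -0.01 among all genes tested. In 105 genes the fitted change was smaller than a doubling or halving. The fitted change had the same sign in each cross on its own in 101 genes. It did so in all 50 called genes, which their call in the joint fit of the same libraries makes likely. The share over all genes tested was not computed for either count.

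Both the counts called and the sign of the median depended on single libraries. Leaving out the Col-0 × Tsu-1 zygote gave 77 calls in place of 50 and a median of 0.05, and leaving out zygote Tsu-1 × Col-0 replicate 1 gave 31. Without either of the octant libraries with a Col-0 mother there were 33 calls, and without either of those with a Tsu-1 mother 21. The median change was 0.10 when the Tsu-1 × Col-0 libraries were fitted alone and -0.32 for the Col-0 × Tsu-1 libraries alone, with 63 and 100 calls, so its sign differed between the crosses.

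**Figure D3:**
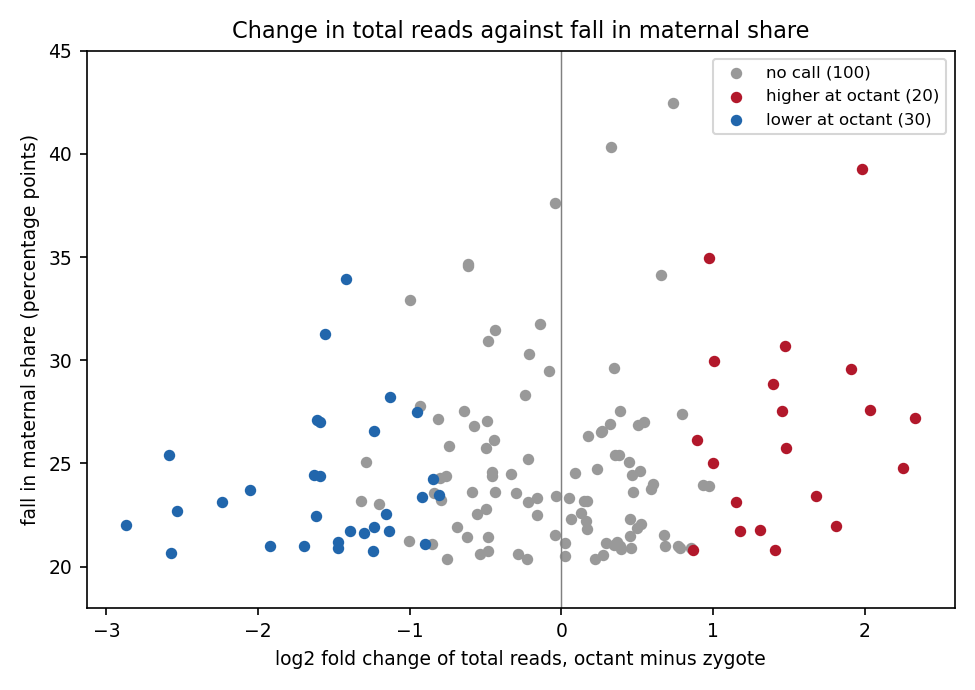
Fall in mean maternal share from zygote to octant in percentage points against the log2 fold change of total reads, octant minus zygote, 1 point per gene, with the 20 genes called higher in red and the 30 called lower in blue. Genes with large and small falls lie on both sides of 0.

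Size of the fall and change in level were nearly unrelated across these genes. Spearman's rho was 0.10 over the 150 genes and 0.08 over all 1551 zygote-maternal genes, given as a description because the genes share libraries. Multiplying the mean level of a group by its maternal share splits it into a maternal and a paternal part, again a description, since the share chose the genes. The maternal part fell in both crosses in 82 of the 150 genes and the paternal part rose in both in 115. Both were true in 52 genes, and in 21 genes both parts rose in both crosses. Among the 1401 other zygote-maternal genes these counts, in the same order, were 671, 528, 117 and 210. At the median of the 150 genes the paternal part at octant was 2.29 times its zygote value in Col-0 × Tsu-1 and 11.7 times in Tsu-1 × Col-0. The maternal part was at 0.659 and 0.660 of its zygote value. Among the other zygote-maternal genes the medians were 0.951 and 2.16 for the paternal part and 0.799 and 0.627 for the maternal part. The paternal folds start from small zygote shares and so depend on how the deposited shares were shrunk towards an even split.

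Among the 20 genes with more reads at octant, the maternal part rose to 1.79 and 2.02 times its zygote value at the median with a Col-0 and with a Tsu-1 mother. A higher total with a falling maternal share fixes a rise of the paternal part, so this split adds no test. Only 2 of the 20 also met the level and overlap conditions for naming, AT5G62260 and TWN2. AT5G62260 encodes an AT-hook protein, a class that binds AT-rich DNA, and lies on chromosome 5 at 25008843 to 25011666 in the RefSeq TAIR10.1 assembly. Its level was 83.7 CPM in the Col-0 × Tsu-1 zygote and 45.03 and 43.6 CPM in the zygotes of the other cross. Octant libraries had 131 and 147 CPM with the Col-0 mother and 176 and 186 CPM with the Tsu-1 mother, so every octant library was above every zygote library. The rise was 1.48 ± 0.35 in log2 (SE, edgeR adjusted p = 0.0161), and octant was also above ovule by 1.15 ± 0.25 (edgeR adjusted p = 0.00637). The call on the rise was lost without the first zygote library of Tsu-1 × Col-0 or without either octant Tsu-1 × Col-0 library, with adjusted p up to 0.059.

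TWN2 encodes a valyl-tRNA synthetase, which charges tRNA for translation, and mutants in it are known to form additional embryos from the suspensor. It had 16.9, 17.9 and 27.7 CPM in the zygote libraries and 50.7, 41.8, 39.3 and 50.4 CPM in the octant libraries, without overlap. The rise was 1.15 ± 0.31 in log2 (SE, edgeR adjusted p = 0.0248), but it was lost when zygote Tsu-1 × Col-0 replicate 1 or any octant library was left out, with adjusted p up to 0.093. Its maternal share went from 80.2% to 70.5% and from 90.6% to 54.0%. Ovule libraries had 21.7 and 19.2 CPM, below all octant libraries.

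SUVH3 rose at both steps. Its level was 4.68, 8.82 and 7.31 CPM in the zygote libraries, 19.5, 21.0, 28.4 and 32.0 CPM at octant and 45.3, 30.2, 65.6 and 58.5 CPM at globular. Ovules had 8.09 and 12.3 CPM, below every octant library. The rise to octant was 1.98 ± 0.26 in log2 (SE, edgeR adjusted p = 0.00356) and the rise to globular 0.95 ± 0.21 (edgeR adjusted p = 0.00447). It kept its call under every alternative tried for the zygote to octant step. SUVH3 overlaps other annotated genes, whose reads could not be told apart if strand was not recorded.

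Other risers with known roles, and the gene with the largest rise, were chosen after their values were seen, ARF8 apart. ARF8 rose by 0.98 ± 0.27 in log2 (SE, edgeR adjusted p = 0.0287), from 6.89, 10.4 and 9.54 CPM at zygote to between 15.5 and 19.1 CPM at octant, but lost its call without any 1 of the octant libraries. PRL, the MCM7 subunit of the helicase that unwinds DNA at replication forks, rose by 1.39 ± 0.45 (edgeR adjusted p = 0.0454) and again by 1.21 ± 0.21 to globular (edgeR adjusted p = 0.00109). The pseudouridine synthase gene AT1G34150 had the largest rise of the 150 genes, 2.33 ± 0.42 (edgeR adjusted p = 0.00699), from between 5.22 and 13.2 CPM to between 31.7 and 53.8 CPM.

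Among the 30 genes with fewer reads at octant, a smaller maternal part follows from the lower total and the falling share, and only the paternal part could go either way. It was larger at octant in 12 of the 30 in Col-0 × Tsu-1, with a median of 0.906 times its zygote value, and in 27 in Tsu-1 × Col-0, with a median of 3.66 times. It was larger in both crosses in 10. Of the 9 that met the level and overlap conditions, the 8 with the largest falls are named. AT2G47710, annotated as an adenine nucleotide alpha hydrolase-like protein, fell most, by 2.87 in log2 (SE 0.51, edgeR adjusted p = 0.00687). It had 299 CPM in the Col-0 × Tsu-1 zygote, 1883 and 703 CPM in the Tsu-1 × Col-0 zygotes, and 81.1, 59.0, 104.1 and 150.5 CPM at octant. The zygote libraries were far apart from each other and yet all above the octant libraries. Ovules had 96.7 and 182 CPM, below every zygote library, and the difference between octant and ovule did not pass the test.

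GONST3, a transporter of nucleotide sugars into the Golgi, fell by 1.70 in log2 (SE 0.39, edgeR adjusted p = 0.0149). Its libraries had 52.7, 131 and 54.1 CPM at zygote and 24.8, 24.5, 23.9 and 20.1 CPM at octant. FIP2 fell by 1.42 (SE 0.26, edgeR adjusted p = 0.00782), from 155, 194 and 135 CPM to 59.4, 55.6, 67.1 and 57.1 CPM, and rose again at globular by 0.82 ± 0.22 (edgeR adjusted p = 0.0124). FIP2 thus combined a fall in maternal share among the 10 largest with fewer total reads. AT2G47710 and FIP2 kept their calls under every alternative tried, while GONST3 lost its call without either octant Tsu-1 × Col-0 library (adjusted p up to 0.069).

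**Figure D4:**
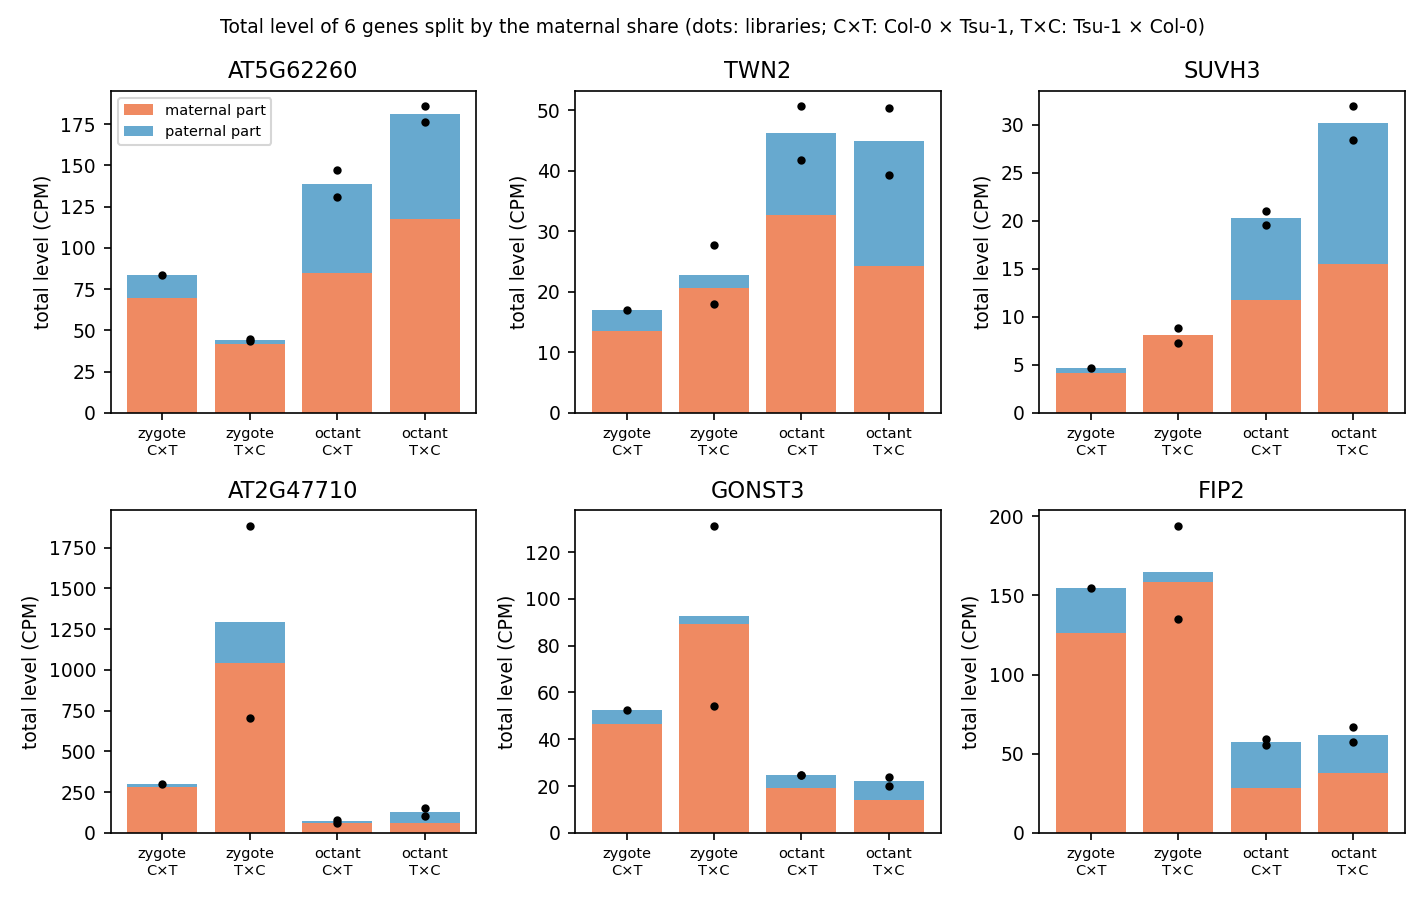
Total level in CPM of 6 genes at zygote and octant in each cross, as bars of the group mean split by the authors' maternal share into a maternal and a paternal part, with dots for libraries. In AT5G62260, TWN2 and SUVH3 both parts are larger at octant, and in AT2G47710, GONST3 and FIP2 the maternal part is smaller.

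The other named fallers were EX2, AT4G05090, EMB3123, AT1G30845 and AT4G31490, with log2 changes between -1.30 and -1.14 and edgeR adjusted p between 0.0121 and 0.0362. EX2 acts in the chloroplast response to singlet oxygen, EMB3123 is a pentatricopeptide repeat protein named for an embryo-lethal mutant, and AT4G31490 is a beta subunit of the coatomer of vesicle traffic. EX2 had 111, 156 and 47.7 CPM at zygote and between 41.4 and 46.2 CPM at octant, so the second Tsu-1 × Col-0 zygote library stood close to the octant libraries. All 5 lost their call without either octant Tsu-1 × Col-0 library. Of the 13 alternatives tried per gene, EX2 lost it in 7, EMB3123 and AT1G30845 in 4 each, AT4G05090 in 3 and AT4G31490 in 2. ESP, the separase that opens sister chromatids at anaphase and was named after its values were seen, fell by 1.13 (SE 0.31, edgeR adjusted p = 0.0258) and rose to globular by 0.89 ± 0.29 (edgeR adjusted p = 0.0311).

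The upstream sequences of the 2 named risers and the 2 largest named fallers are shown because these genes moved in opposite directions in total reads while their maternal shares all fell. Each is the stretch before the annotated gene start in RefSeq's TAIR10.1 genome, up to 200 bases or to the neighbouring gene, 5′ to 3′ on the gene's strand. Positions are chr5:25008643-25008842 on the plus strand for AT5G62260, chr1:5014534-5014674 on the minus strand for TWN2 (AT1G14610), chr2:19556127-19556325 on the minus strand for AT2G47710 and chr1:28636969-28637168 on the minus strand for GONST3 (AT1G76340). Capitals mark matches, on either strand, to the motifs searched.
AT5G62260: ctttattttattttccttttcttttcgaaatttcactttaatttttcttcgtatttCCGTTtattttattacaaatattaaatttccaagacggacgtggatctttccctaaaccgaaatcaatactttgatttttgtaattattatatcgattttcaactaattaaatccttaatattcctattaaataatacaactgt
TWN2: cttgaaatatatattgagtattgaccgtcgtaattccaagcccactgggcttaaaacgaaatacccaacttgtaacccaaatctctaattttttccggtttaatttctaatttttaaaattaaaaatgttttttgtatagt
AT2G47710: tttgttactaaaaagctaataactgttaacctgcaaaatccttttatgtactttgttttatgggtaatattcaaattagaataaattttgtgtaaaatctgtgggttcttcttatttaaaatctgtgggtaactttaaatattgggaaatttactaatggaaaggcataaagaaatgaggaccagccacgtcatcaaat
GONST3: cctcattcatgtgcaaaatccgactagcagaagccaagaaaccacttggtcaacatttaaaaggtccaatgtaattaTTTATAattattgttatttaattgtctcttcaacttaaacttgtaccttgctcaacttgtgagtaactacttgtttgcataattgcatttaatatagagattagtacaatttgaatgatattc

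The motifs were AACGG, the core bound by MYB factors of mitotic genes, TGGGCC, the site II element of ribosomal and cell cycle genes, AAACCCTA, the telo box, CACGTG, the G-box, TTTCCCGC, an E2F site, and TATAAA, the TATA box core, all on both strands. AT5G62260 held 1 AACGG match and GONST3 1 TATAAA match. In windows of 250 bases, TGGGCC was found in 37 of the 150 genes (24.7%), against 14.1% of the other zygote-maternal genes and 13.7% of all 27444 protein-coding genes. CACGTG was found in 4 (2.67%), against 10.1% and 6.49%. AACGG was found in 26.7%, against 20% and 20.6%. It was in 11 of the 20 genes called higher and in 7 of the 30 called lower. In the same order the counts were 3 and 9 for TGGGCC, 9 and 12 for TATAAA and 0 and 1 for CACGTG. For AAACCCTA and TTTCCCGC they were 0 and 0. AAACCCTA was in 5.33%, against 2.00% and 4.49%, TATAAA in 42.7%, against 45.8% and 47.3%, and TTTCCCGC in none, against 0.571% and 0.619%. These shares are descriptions without a test, and a match is not a bound site.

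Of the 10 genes with the highest mean octant CPM, AT5G62260 was called higher, AT2G47710 was called lower and 8 had no call. GRF6, a 14-3-3 protein that binds phosphorylated partners, had 301, 848 and 522 CPM at zygote and 258, 270, 283 and 243 CPM at octant (log2 change -0.94 ± 0.40, edgeR adjusted p = 0.102), lower in every octant library though without a call. RAD23B, which delivers ubiquitinated proteins to the proteasome, had 139, 136 and 84.1 CPM and then 148.9, 124, 211 and 167 CPM. ADC1, the arginine decarboxylase of polyamine synthesis, had 107, 63.0 and 55.2 CPM and then 112, 76.2, 62.6 and 54.8 CPM. For both genes the ranges of the stages overlap. For ADC1 the maternal share fell more with the Col-0 mother, from 94.5% to 54.7%, than with the Tsu-1 mother, from 95.9% to 76.7%, as it did for RAD23B, from 80.1% to 48.2% and from 92.4% to 74.3%. TFIIS, a transcript elongation factor, the lipid transfer protein LTPG1, CSP3, the AT-hook gene AT4G17950 and the PWWP-domain gene AT5G40340 had log2 changes between -0.76 and 0.78, none past the test.

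By function, the 150 genes were mixed. Classes were assigned from words in the RefSeq product names, and 60 of the 150 genes had a symbol. Products whose names hold words such as RNA-binding, splicing, helicase or pentatricopeptide were 8 of 150 (5.33%), against 1.64% of the other zygote-maternal genes and 3.35% of all genes with parental values, with 1 higher, 2 lower and 5 without a call from zygote to octant. EMB3123, whose product name abbreviates the repeat as PPR, is not counted in it. The 8 proteasome and ubiquitin genes (5.33%, against 3.43% and 4.13%) had 1 higher and 2 lower. The 7 genes caught by transcription factor words (4.67%, against 5.35% and 5.26%) had 3 higher and 2 lower. ETT, an auxin response factor, and AT2G24645, annotated as a B3 family transcriptional factor, are not counted there. Products caught by kinase or receptor words were 2.67%, against 6.14% and 5.49%, and none of the 4 was called. The metabolic enzyme PFK2 and AT3G29185, a DUF3598 protein, are among the 4, while the receptor-like protein CLV2 is not. No class had more than 3 genes called in 1 direction, and these counts have no test. None of the 150 genes was on the lists of 22 seed coat, 17 endosperm, 36 embryo patterning or 7 egg cell markers. Few could have been, since 10 seed coat markers, 1 embryo patterning marker and 0 of the other 2 lists were among the 1551 eligible genes.

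From octant to globular more of the 150 genes rose than fell, whereas most called genes among the other zygote-maternal genes fell; this difference has no test of its own. Of the 150 genes, 27 rose and 9 fell (edgeR adjusted p under 0.05), or 18% and 6%, beside 16.9% higher and 20.2% lower among all 19070 genes tested. Among the other zygote-maternal genes 80 rose and 570 fell, or 5.71% and 40.7%. The median log2 fold change was 0.20 in the 150 genes, -0.46 in the others and 0.03 among all genes tested. Of the 30 genes that had fallen from zygote to octant, 9 rose from octant to globular and 1 fell, comparisons that share the octant libraries. The same count was not made for other genes, so it does not set these genes apart. The count of 36 ranged from 25 to 41 when single libraries were left out.

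Markers of the seed coat fell over the same stages. The summed level of the 22 seed coat markers was 482 to 542 CPM in ovules, 7008 to 14642 CPM at zygote, 3785 to 5774 CPM at octant and 922 to 1912 CPM at globular. At octant it was 5774 and 5013 CPM with a Col-0 mother and 3785 and 4055 CPM with a Tsu-1 mother. The order was reversed at globular, with 1119 and 922 CPM against 1558 and 1912 CPM. The Col-0 × Tsu-1 zygote, with 8246 CPM, lay between the zygotes of the other cross. Of the 22, 7 fell and 2 rose from zygote to octant, and 19 fell from octant to globular. The 17 endosperm markers summed to 55.0 to 70.3 CPM at zygote, 149 to 432 CPM at octant and 80.1 to 216 CPM at globular, and 5 of the 14 tested rose to octant. The 7 egg cell markers went from between 68.4 and 269 CPM at zygote to between 20.6 and 24.8 CPM at octant, where 2 of them had no reads in any library. Of the 4 egg cell markers tested, 1 fell, 0 rose, and the median log2 change was 1.00, opposite in sign to the change of the sum. The 36 embryo patterning markers summed to 848 to 1967 CPM at zygote and 1792 to 2815 CPM at octant, with 12 higher and 1 lower of 29 tested. The part of seed coat or endosperm RNA in the changes of the 150 genes was not tested.

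Rises to globular reached several-fold. ETT, also called ARF3, an auxin response factor of organ polarity, had 41.9, 37.6, 91.6 and 79.5 CPM at octant and 504, 229, 217 and 381 CPM at globular. That is a rise of 2.47 ± 0.36 in log2 (SE, edgeR adjusted p = 0.00041), and every globular library was above every octant library. The zygote libraries had 56.3, 70.4 and 39.8 CPM, within the octant range. LTPG1, which takes part in exporting cuticle lipids, had between 502 and 1045 CPM at globular and rose by 2.08 ± 0.27 (edgeR adjusted p = 0.000232), and the thaumatin-like gene AT4G38660 by 2.85 ± 0.28 (edgeR adjusted p = 5.99e-05). HON5, a high mobility group protein of chromatin, rose by 1.58 ± 0.23 (edgeR adjusted p = 0.000434). Among the 9 that fell were AT1G69818, by 2.76 (SE 0.31, edgeR adjusted p = 0.000111) and GlcNAc1pUT1, by 1.16 (SE 0.28, edgeR adjusted p = 0.0072). These genes were picked for description after their values were seen.

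Against unfertilized ovules, the zygote level of most of the 150 genes did not differ past the test. The test called 3 higher and 6 lower in zygotes (edgeR adjusted p under 0.05), beside 5.12% higher and 4.28% lower among all 23297 genes tested, and 37 had an unadjusted p under 0.05. Among the other zygote-maternal genes 9.92% were higher and 1.71% lower. The median log2 difference was -0.09 in the 150 genes and 0.55 in the other zygote-maternal genes. These counts are unsteady, with 58 calls without the Col-0 × Tsu-1 zygote, 1 without either of the zygotes with a Tsu-1 mother, and 0 without either of the ovule libraries. At octant 16 were higher and 46 lower than in ovules, or 10.7% and 30.7%, beside 23.1% and 24.6% of all 21238 genes tested and 27.8% and 25.6% of the other zygote-maternal genes. The median difference of octant from ovule was -0.38 in the 150 genes and 0.03 in the others. ETT (lower by 2.00, SE 0.38), CLV2, a receptor-like protein of meristem signalling, and PRL were among the 46. Ovules were of Col-0 only, so accession and stage are mixed in these comparisons.

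**Figure D5:**
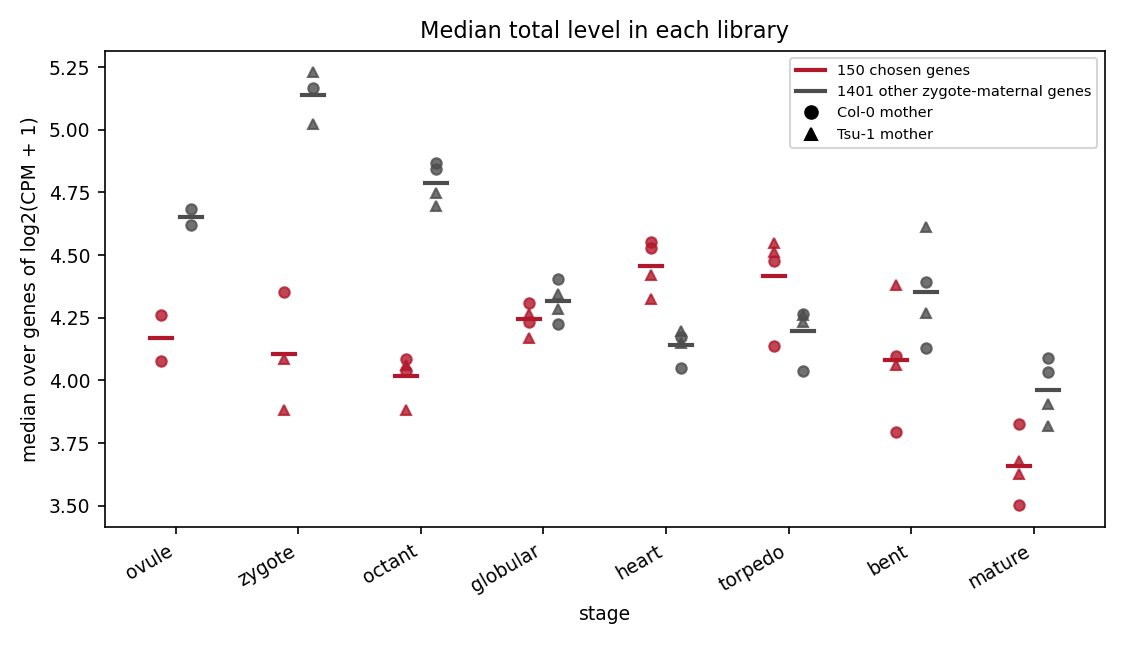
Median over genes of log2(CPM + 1) in each library, for the 150 genes in red and the 1401 other zygote-maternal genes in grey, with circles for a Col-0 mother, triangles for a Tsu-1 mother and lines for stage means. Levels are not per length, so only changes within a set are read: octant libraries of the 150 genes lie between 3.88 and 4.09 and globular ones between 4.17 and 4.31, while the others go from between 4.70 and 4.87 to between 4.23 and 4.41.

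Over all stages the peak level of the 150 genes was spread out. By stage means, 37 of the 150 genes (24.7%) were highest at zygote and 7 (4.67%) at octant. The globular and heart stages held the peak of 14 and 22 genes, torpedo and bent embryos that of 23 and 14, and mature embryos that of 33. Of the other zygote-maternal genes, 41.7% were highest at zygote and 15.8% at octant. In 1 shallow library, bent Tsu-1 × Col-0 replicate 2, 66 of the 150 genes had under 10 reads, so single genes are not followed there.

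The change from zygote to octant differed between the crosses for a part of the genes. A stage by cross interaction passed the test in 38 of the 150 genes, with 29 larger and 9 smaller for a Tsu-1 mother (edgeR adjusted p under 0.05). Among all 19736 genes tested 19.4% were larger and 16.4% smaller, and among the other zygote-maternal genes 10.3% and 19.0%. The count rests on single libraries, with 79 and 77 calls when the first or second zygote library with a Tsu-1 mother was dropped. It was 10 and 9 when the first or second octant library with a Col-0 mother was dropped, and 12 without either octant Tsu-1 × Col-0 library.

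In the genes with the strongest interactions the single Col-0 × Tsu-1 zygote library lay outside the range of the other zygotes. AT5G06370, an NC domain gene, had 43.3 CPM there and 7.55 and 3.55 CPM in the Tsu-1 × Col-0 zygotes, against 19.8 and 16.5 CPM and 25.8 and 33.6 CPM at octant. Its interaction was 3.59 ± 0.52 in log2 (SE, edgeR adjusted p = 0.00162). AT4G38660 had 125, 19.9 and 6.60 CPM in the same 3 zygote libraries and 54.0, 54.0, 73.4 and 65.7 CPM at octant. AT5G53045, annotated as a transcription factor, went the other way, with 1.41 CPM in the Col-0 × Tsu-1 zygote and 6.61 and 13.0 CPM in the others. With 1 library in that group, its own variation and the cross cannot be told apart.

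The 150 genes lay on all chromosomes, with 46, 20, 24, 26 and 34 on chromosomes 1 to 5, and 30.7% on chromosome 1 compares with 26.4% of the other zygote-maternal genes. The median gene length was 2721 bases against 2343, the median number of exons 6 against 5, and 9.33% had a single exon against 13.2%. In the annotation 51 of the 150 genes (34.0%) overlap another gene, against 31.7%. Reads of such genes, SUVH3, FIP2, PFK2, pde194, EMB3123 and AT1G69818 among them, cannot be assigned with certainty. TFIIS overlaps AT2G38570, which is itself among the 150 genes and fell by 2.59 in log2 while TFIIS did not pass the test.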

How the data were processed

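RNA-seq libraries of hybrid embryos and ovules were analysed from 2 deposited tables. The table of total reads deposited by the authors holds expected counts (raw, with fractions of reads) of 33341 genes in 29 libraries, which were rounded here. They also deposited, per stage and cross, maternal fractions pooled over libraries and shrunk towards 0.5, adjusted p-values whose test is not given in the sources used here, and estimated counts of variant reads. The submitters' processing notes name TAIR10, STAR 2.7.0d, featureCounts 1.6.0 and edgeR. Fractions are printed as percent, and no test of their own was made. Intronic values, and the part of the naming rule that needs them, are not used here.

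Tests on counts used edgeR (version 4.0.16, under R 4.3.3; genes kept by filterByExpr on stage, TMM scaling, two-sided quasi-likelihood F tests, Benjamini-Hochberg over all genes tested, threshold 0.05), with cross direction as a covariate between embryo stages and none against ovules. DESeq2 1.42.0 was an alternative. Levels are TMM-scaled CPM of all 29 libraries, with 1 added before logs. Zygote and octant libraries of both crosses were fitted together. Labels call the libraries biological replicates without naming separate plants, so p-values measure the spread between these libraries. The procedure was tested on simulated data. There the stage by cross interaction test, with 1 library in a group, found 0% of 4-fold changes and 84% of 16-fold ones. A missing call therefore does not show that the crosses changed alike. The data did give calls below 4-fold, such as 1.24 in log2 for AT5G62260. How certain such smaller calls are is not measured by the simulation. Symbols, products and coordinates came from RefSeq's TAIR10.1 annotation, in which 33056 of 33341 identifiers and all 150 genes matched. Python 3.11.15, pandas 2.3.3, numpy 2.4.6 and matplotlib 3.10.9 were used.

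The genes and lists were chosen with earlier results of these data known. Named genes are the 10 largest falls, up to 8 per direction called from zygote to octant with an average log2 CPM reaching 5 and stages that did not overlap, the 10 with the highest octant CPM, those next to the limit of 150, those maternal in both crosses at globular (0) and the 5 strongest interactions; others named were chosen after their values were seen. Upstream windows were shortened at neighbouring genes after seeing the annotation. Alternatives were another scaling, no filter, DESeq2, a replicate block, each library left out, single crosses and other choices of the 150.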

Additional observations from a re-analysis of the deposited data

Results flagged for a closer look

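In 10 of the named genes the change in total reads from zygote to octant differed between the crosses, by an interaction term tested with edgeR and adjusted over all genes. Positive values mean a change that was larger, or less negative, with a Tsu-1 mother. The log2 differences were 3.59 for AT5G06370 (adjusted p = 0.00162), 3.54 for AT4G38660 (adjusted p = 0.004), 2.94 for AT5G08560 (adjusted p = 0.00267), 2.93 for AT3G24670 (adjusted p = 0.00226) and -2.89 for AT5G53045 (adjusted p = 0.0161). The other genes were AT5G07670 with 1.54 (adjusted p = 0.0365), AT5G40340 with 1.27 (adjusted p = 0.0435), AT5G62260 with 1.24 (adjusted p = 0.0422), SEC3A (AT1G47550) with -1.42 (adjusted p = 0.0272) and LTPG1 (AT1G27950) with -1.49 (adjusted p = 0.0292). SEC3A had 11.99 CPM in the Col-0 × Tsu-1 zygote and 33.2 and 22.7 CPM in the Tsu-1 × Col-0 zygotes, and between 18.6 and 21.8 CPM at octant. AT5G40340 had 215, 85.4 and 63.8 CPM in the same zygote libraries and between 59.8 and 75.2 CPM at octant. AT5G06370, AT4G38660, AT5G08560, AT3G24670 and AT5G53045 were named because their interactions were the strongest. The count of 10 is therefore partly fixed by that choice. Among all 19736 genes tested, 19.4% were called larger and 16.4% smaller with a Tsu-1 mother. Such calls were thus common, and the count does not set the named genes apart. The Col-0 × Tsu-1 zygote had 1 library, so the cross and that library cannot be told apart. On simulated data this test found 0% of 4-fold differences, while several values here lie below 4-fold. How certain these smaller values are is not measured by the simulation.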

How the results depend on the processing

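Of the counts of changed genes, those from octant to globular (36) and between octant and ovule (62) stayed within 1.5 times under every alternative tried. The count from zygote to octant (50) was 27 with a replicate block and 100 in the Col-0 × Tsu-1 libraries alone, and ranged from 21 to 77 when 1 library was left out. The count between zygote and ovule (9) was 18 with no filter, 29 with DESeq2, 1 with a replicate block and 46 with a Col-0 mother only, and ranged from 0 to 58 when 1 library was left out. The count of cross-dependent changes (38) ranged from 9 to 79 when 1 library was left out, and the fit without the Col-0 × Tsu-1 zygote could not be made. No gene was maternal in both crosses at globular under any of the 5 alternatives. Those that only set stricter limits on the same genes could not have raised a count of 0. Only the other choices of the 150 genes could have done so. The replicate numbers did not pair the samples, since correlations between same-numbered libraries were between -0.21 and 0.12, so the block shares only a number. Over the 33 named genes, 353 of 429 alternative values kept direction and side of the threshold, 37 lost the call, 23 gained it, 16 changed sign without a call and 0 reversed with one. Choosing genes with 100 reads, or by the smaller fall of both crosses, shared 71 or 87 of the 150 genes. Depth limits single genes in the shallowest library (bent, Tsu-1 mother, 0.69 M reads) and in the globular and ovule libraries of 1.49 and 2.85 M reads; without that globular library the count of 36 was 40. The cause of these shifts was not tested.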
